A study of Homo sapiens with 4 samples.

Results

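Expression was examined for 10 keratin genes, chosen by name from the 60671 genes in the deposited tables: KRT8, KRT18, KRT19 and KRT7 of luminal or simple epithelium, KRT5, KRT15 and KRT17 of basal epithelium, and KRT80, KRT81 and KRT10. Each symbol matched 1 Ensembl identifier. RNA-seq was performed on 22RV1 cells, a prostate carcinoma line grown from a xenograft, and on PC3 cells, a prostate carcinoma line from a bone metastasis. Cells of both lines carried a lentiviral pLKO.1 vector expressing either a control shRNA (shCON) or a DDX52 shRNA (shDDX52), so the controls, too, had gone through infection and drug selection. DDX52 encodes a DEAD-box RNA helicase. With 1 library in each of the 4 conditions, no difference below could be compared with a spread between replicates, and no p-value was computed.

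Keratins form the intermediate filaments of epithelial cells. A filament is built from pairs of 1 acidic type I keratin and 1 basic type II keratin, so neither type forms a filament alone. In the prostate, luminal cells are known for KRT8 and KRT18, basal cells for KRT5 with KRT14, and cells between these states for mixtures such as KRT19 and KRT7 with basal keratins. Of the members, KRT8, KRT7, KRT5, KRT80 and KRT81 are type II, and KRT18, KRT19, KRT15, KRT17 and KRT10 are type I. In the GENCODE 29 annotation the type II members lie on chromosome 12 and the type I members on chromosome 17, except KRT18, which lies next to KRT8 on chromosome 12 with 0 protein-coding genes between them.

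The central rod of every keratin ends in a conserved stretch, and such likeness can let short reads match more than 1 keratin gene. The 27 coding bases of this stretch are shown for the 5 most abundant members, read from the coding sequences of GENCODE 29 transcripts, 5′ to 3′, with capitals where a base differs from KRT8.
KRT8: acctacaggaagctgctggagggcgag
KRT7: acctacCgCaagctgctggagggcgag
KRT81: acctacaggCGCctgctggagggcgag
KRT18: acctacCgCCGCctgctggaAgATgGC
KRT19: acctacCgCaGCctgctCgagggACag
KRT7 differed from KRT8 at 2 of the 27 bases, KRT81 at 3, KRT19 at 7 and KRT18 at 10. The stretch was sought by a protein motif of tyrosine, arginine, any residue, leucine, leucine and glutamate. This search found it in 9 of the 10 members, and 14 of its bases were the same in all 9. Some of these shared bases were set by the motif itself, so their number is no measure of conservation.

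Values are the authors' TPM (length-corrected transcript abundance), in which the reads of a gene are first divided by its length. The result is scaled by the sum of these length-corrected values over the library, so that levels can be set side by side between genes. The depth of the libraries cannot be read from TPM, so no interval can be given for a value. The listed TPM summed to between 984448 and 990860 in the 4 libraries. The share of genes annotated as rRNA ranged from 0.0872% to 3.13%, with the highest value in PC3 shDDX52, and that of protein-coding genes from 91.0% in the same library to 96.2%. Mitochondrially encoded genes took more of the TPM with shDDX52 in both lines, with 9.81% and 13.0% in 22RV1 and 8.10% and 10.3% in PC3. The part of these shares in the keratin values was not tested. Changes are given as the log2 ratio of (TPM + 1) for genes with at least 1 TPM in either of the libraries compared, and the added 1 understates the change of low genes. In 22RV1 the DDX52 mRNA was 4.88 TPM without and 1.20 TPM with its shRNA, and in PC3 these values were 9.20 and 2.07 TPM.

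The cell lines were told apart by their other markers. The luminal gene KLK3, which encodes prostate-specific antigen, was 6.84 TPM in control and 4.51 TPM in knockdown 22RV1 cells, and its value in each PC3 library was listed as 0. FOLH1, which encodes prostate-specific membrane antigen, was 67.9 and 77.4 TPM in 22RV1 and 0.05 and 0.26 TPM in PC3. HOXB13, a homeobox factor of prostate epithelium, was 89.9 and 104.7 TPM in 22RV1 and still 39.9 and 34.1 TPM in PC3. TP63, the transcription factor that defines basal cells, was listed at 0 in both 22RV1 libraries and was 0.30 and 0.22 TPM in the PC3 libraries. The summed TPM of 5 basal non-keratin markers was 19.5 (shCON) and 10.1 (shDDX52) in 22RV1 cells and 1161 and 1030.3 in PC3 cells, held in PC3 by CD44, ITGB4 and S100A2 and not by TP63 or NGFR. Of 6 neuroendocrine markers, SYP reached 19.7 and 35.6 TPM in 22RV1, and in PC3 no marker exceeded 0.40 TPM. Fibroblast markers summed to between 8.15 and 21.3 TPM and leukocyte and endothelial markers to between 4.43 and 44.2 TPM. Among the latter, PTPRC, the pan-leukocyte marker, was at most 0.39 TPM. CD68 held most of their sum in PC3, at 38.35 and 35.57 TPM, and PECAM1 was 5.03 and 0.85 TPM there. The part of these differences in the keratin values was not tested.

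**Figure D1:**
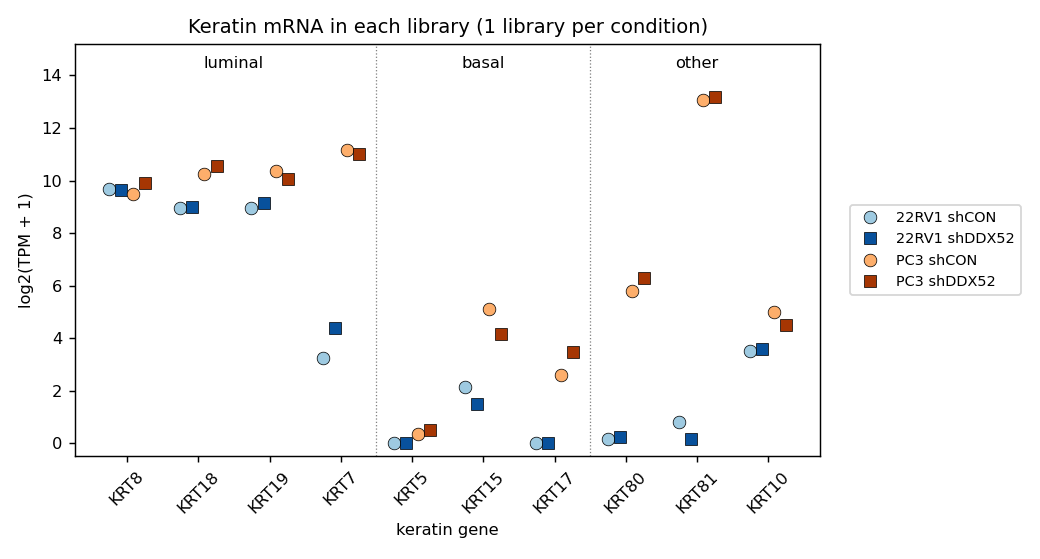
Level of each of the 10 keratins in each of the 4 libraries, as log2(TPM + 1) on the vertical axis, grouped as luminal, basal and other keratins, with 1 point per library. KRT8, KRT18 and KRT19 are high in all 4 libraries, while KRT7, KRT80 and KRT81 are far higher in the PC3 libraries than in the 22RV1 ones and KRT5 is near 0 in each.

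KRT8 (ENSG00000170421), the type II keratin of simple epithelium, was 812 (shCON) and 803 TPM (shDDX52) in 22RV1, and 720.0 and 959.8 TPM in PC3. The 2 cell lines overlapped for this gene, with both 22RV1 libraries between the PC3 ones. KRT18 (ENSG00000111057), its type I partner, was 488 and 508 TPM in 22RV1 and 1199.55 and 1492 TPM in PC3, shCON first. KRT19 (ENSG00000171345), the smallest keratin and one almost without a tail domain, was 489 and 567 TPM in 22RV1 and 1331 and 1064 TPM in PC3. KRT18 and KRT19 thus lay higher in both PC3 libraries than in either 22RV1 library. KRT7 (ENSG00000135480), a type II keratin of ductal and glandular epithelium, was 8.39 and 19.9 TPM in 22RV1 and 2273 and 2083 TPM in PC3. In these bulk cultures, fewer cells with a keratin and less of its mRNA per cell cannot be told apart. KRT7 was the lowest of the 4 luminal members in 22RV1 and the highest of them in PC3.

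The basal keratins were low throughout. KRT5 (ENSG00000186081), the type II keratin that defines basal cells, was listed at 0 in both 22RV1 libraries and was 0.27 TPM in PC3 shCON and 0.40 TPM in PC3 shDDX52, so it passed the minimum of 1 TPM in no library. KRT15 (ENSG00000171346), a type I keratin of basal cells, was 3.38 and 1.79 TPM in 22RV1 and 33.3 and 17.0 TPM in PC3. KRT17 (ENSG00000128422), a type I keratin induced in injured and basal-like epithelium, was listed at 0 in both 22RV1 libraries and was 5.01 and 10.1 TPM in PC3. The summed TPM of the 3 genes was 3.38 and 1.79 in 22RV1 and 38.6 and 27.5 in PC3, against 1797 and 1898 and against 5524 and 5599 for the 4 luminal members.

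KRT81 (ENSG00000205426), a type II keratin of the hair cortex, was the most abundant keratin in PC3, with 8589 TPM in shCON and 9338 TPM in shDDX52. By TPM it ranked 7 and 5 among all genes of these libraries, whereas it was 0.75 and 0.12 TPM in 22RV1. KRT80 (ENSG00000167767), a type II keratin of differentiating epithelium, was 0.10 and 0.18 TPM in 22RV1 and 53.8 and 76.7 TPM in PC3. KRT10 (ENSG00000186395), the type I keratin of differentiated epidermis, was 10.2 and 10.9 TPM in 22RV1 and 31.2 and 21.5 TPM in PC3. It was the member outside the luminal group with the highest level in 22RV1.

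The summed TPM of the 10 members was 1812 with shCON and 1911 with shDDX52 in 22RV1, and 14237 and 15062 in PC3. This was 0.183% and 0.193% of the listed TPM in 22RV1 and 1.44% and 1.53% in PC3. KRT8, KRT18 and KRT19 together held 98.7% and 98.3% of the keratin sum in 22RV1 and 22.8% and 23.3% in PC3. In PC3, KRT81 alone held 60.3% and 62.0%, and KRT7 held 16.0% and 13.8%.

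**Figure D2:**
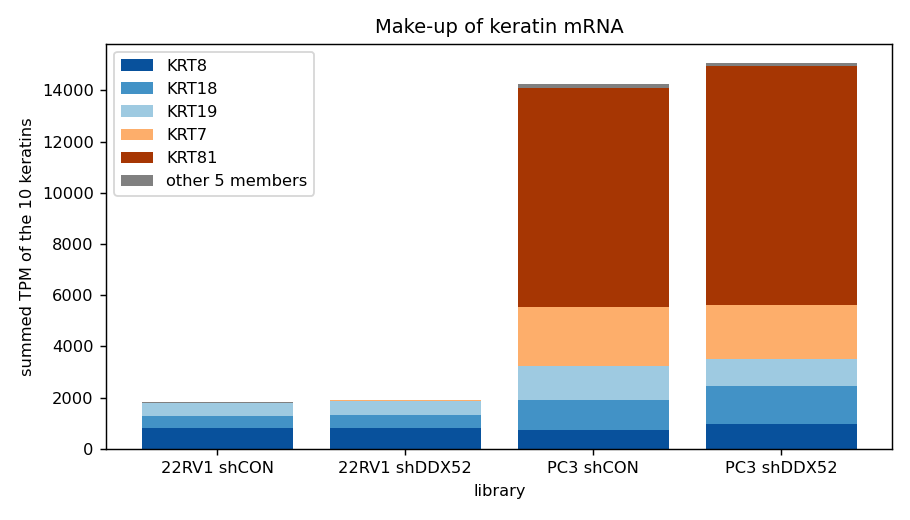
Summed TPM of the 10 keratins in each library, as stacked bars for KRT8, KRT18, KRT19, KRT7, KRT81 and the other 5 members together. The 22RV1 bars reach 1812 and 1911 TPM and consist almost wholly of KRT8, KRT18 and KRT19, and the PC3 bars reach 14237 and 15062 TPM, of which KRT81 is the largest portion.

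The level of KRT81 can depend on how reads were divided among near-identical hair keratins. Its coding sequence was 93.6% identical to that of KRT86 and 93.3% identical to that of KRT83. Of all 100-base windows of the KRT81 coding sequence, 60.9% occurred in no other GENCODE 29 gene, and 37.9% also occurred in KRT86. For 50-base windows these shares were 43.0%, the lowest of the 10 members, and 49.1%. The 60 coding bases in which the KRT81 and KRT86 transcripts differ most, bases 1249 to 1308 of both coding sequences, are shown because reads over them can tell the genes apart, with capitals at the 14 differing bases.
KRT81: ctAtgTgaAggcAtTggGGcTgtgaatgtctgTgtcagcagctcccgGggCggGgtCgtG
KRT86: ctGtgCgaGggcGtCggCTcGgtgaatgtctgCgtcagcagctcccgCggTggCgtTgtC
KRT86 was 0.07 and 0.17 TPM in 22RV1 and 39.0 and 27.5 TPM in PC3, and KRT83 was at most 0.37 TPM in any library. The counting of reads shared by these genes is not given in the sources used here, so the split between KRT81 and KRT86 is uncertain.

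The other members carried less of this uncertainty at 100 bases. KRT18, KRT19, KRT7, KRT15, KRT80 and KRT10 had 100% of their 100-base windows to themselves, KRT17 had 99.6%, KRT5 had 97.9% and KRT8 had 91.6%. At 50 bases the shares were 54.5% for KRT8 and 61.3% for KRT18, both of which have many processed pseudogenes, and 82.9% for KRT17. The 51 annotated KRT8 pseudogenes held between 0.546% and 1.09% of the KRT8 level, and the 67 KRT18 pseudogenes between 0.0663% and 0.309% of the KRT18 level. Antisense neighbours overlap some members, and the labels do not say whether strand was kept. KRT8 and KRT18 are on opposite strands, and 7.63% of the annotated exon bases of KRT8 and 16.3% of those of KRT18 overlap the other gene. KRT7-AS, which overlaps 6.89% of the KRT7 exon bases, was 0.04 and 0.19 TPM in 22RV1 and 14.5 and 11.9 TPM in PC3. KRT10-AS1, which overlaps 2.61% of the KRT10 exon bases, was 7.75 and 4.57 TPM in 22RV1 and 14.51 and 12.34 TPM in PC3. KRT10 itself was 10.24 and 10.94 TPM in 22RV1 and 31.19 and 21.49 TPM in PC3. The part of antisense reads in the values of these members was not tested.

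The pairing of the types was compared within each library, where the scaling of the library drops out. The KRT8 to KRT18 ratio of TPM was 1.66 with shCON and 1.58 with shDDX52 in 22RV1, and 0.600 and 0.643 in PC3. KRT8 thus exceeded its partner in both 22RV1 libraries and lay below it in both PC3 libraries. Summed over the members, type II to type I was 0.829 and 0.757 in 22RV1 and 4.48 and 4.78 in PC3, where KRT81 made up most of the type II sum. With KRT8 and KRT7 set against KRT18 and KRT19 alone, the ratio was 0.839 and 0.765 in 22RV1 and 1.18 and 1.19 in PC3. A smaller type II excess thus remained in PC3 without KRT81. Over all 55 protein-coding keratin genes the type II to type I ratio was 4.63 and 4.90 in PC3. These are mRNA ratios and give no measure of the proteins.

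**Figure D3:**
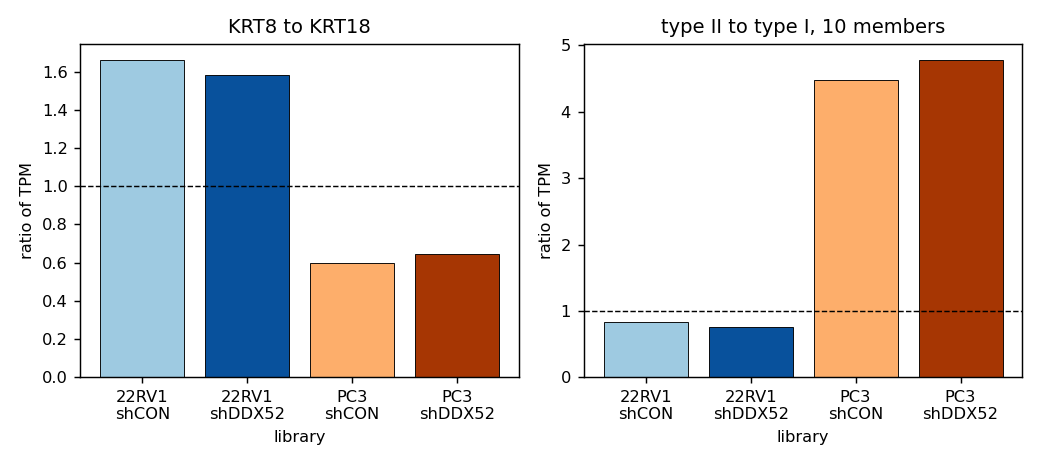
Ratio of TPM within each library for KRT8 to KRT18 (left) and for the summed type II to the summed type I members (right), with 1 bar per library and a dashed line at 1. KRT8 to KRT18 is 1.66 and 1.58 in 22RV1 and 0.600 and 0.643 in PC3, and the type II to type I ratio is under 1 in 22RV1 and over 4 in PC3.

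To describe what DDX52 knockdown was accompanied by, the libraries of each cell line were compared. In 22RV1, 6 of the 10 members had at least 1 TPM in either library. KRT7 was at least 2-fold higher with shDDX52, at 237% of its control TPM and a log2 ratio of 1.15. It was the 1 member of these 6 past 2-fold, against 2.24% of the 14438 genes tested. No member was at least 2-fold lower, against 2.86% of all genes. KRT15 had a log2 ratio of −0.65, at 53.0% of control, with both values under 5 TPM. KRT19, KRT10, KRT18 and KRT8 had log2 ratios of 0.21, 0.087, 0.057 and −0.016, and the sign of KRT8 turned under other scalings. At a 1.5-fold threshold KRT15 counted as lower, against 8.47% of all genes, and KRT7 as higher, against 5.61%. The median of the 6 was 0.072 and that of all genes −0.076.

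In PC3, 9 of the 10 members were tested and 0 were at least 2-fold lower or higher with shDDX52, against 3.44% and 2.86% of 14262 genes. KRT15 was nearest to 2-fold lower, with 51.1% of control and a log2 ratio of −0.93. KRT17 was nearest to 2-fold higher, with 201% of its control TPM and a log2 ratio of 0.88. Its log2 ratio was 1.01 when TPM was recomputed over nuclear protein-coding genes. KRT10 and KRT19 were lower, with log2 ratios of −0.52 and −0.32, and KRT7 had a value of −0.13. KRT80, KRT8, KRT18 and KRT81 were higher, with log2 ratios of 0.50, 0.41, 0.31 and 0.12. At a 1.5-fold threshold KRT15 counted as lower, against 9.84% of all genes, and KRT17 as higher, against 8.95%. The median of the 9 was 0.12, and that of all genes −0.036.

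Side by side, KRT15 was lower with shDDX52 in both cell lines, at 53.0% and 51.1% of control. KRT18 was slightly higher in both, by a log2 ratio of 0.057 in the former and 0.31 in the latter. KRT7 had a log2 ratio of 1.15 in 22RV1, where its level was low, and of −0.13 in PC3, where it was abundant. KRT19 and KRT10 were above 0 in 22RV1 and below 0 in PC3. With 1 library per condition, none of these differences between the cell lines was tested.

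**Figure D4:**
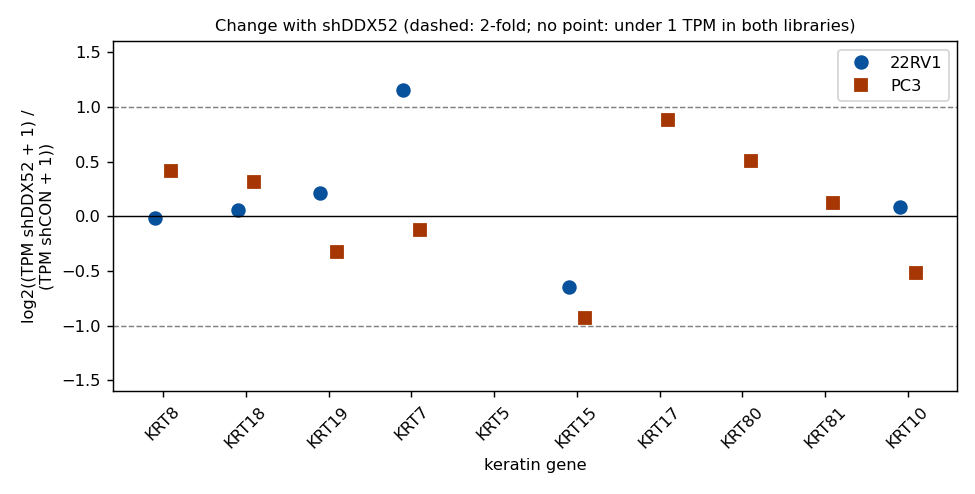
Log2 ratio of (TPM + 1) with shDDX52 against shCON for each keratin, with 1 point per cell line and dashed lines at a 2-fold change. KRT7 in 22RV1 (1.15) is the 1 point past 2-fold, KRT15 lies below 0 in both lines, and KRT5 has no point because it was under 1 TPM in each library.

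Set against 22RV1, the PC3 libraries had more of nearly every keratin. These comparisons use the same 4 libraries as those of the knockdown and are not independent of them, and the tables of the 2 cell lines were made separately. With shCON, 8 of the 9 members tested were at least 2-fold higher in PC3, against 19.9% of 15727 genes, and 0 were at least 2-fold lower, against 21.3%. With shDDX52, 6 of 9 were at least 2-fold higher, against 21.0% of 15598 genes, and 0 were at least 2-fold lower, against 20.2%. KRT17, KRT80 and KRT81 entered these counts through the PC3 libraries alone, so they could only be higher there. The members, and the gene lists below, were chosen with earlier results of these data known. Their counts beside the shares of all genes are therefore a description and no independent evidence. The TPM of KRT7 was 271 times that of 22RV1 with shCON and 105 times with shDDX52. KRT15 was 9.85 and 9.50 times, KRT18 2.46 and 2.94 times, KRT19 2.72 and 1.88 times and KRT10 3.05 and 1.96 times. KRT8 was 0.887 times the 22RV1 level with shCON and 1.20 times with shDDX52. For KRT81 the log2 ratio was 12.26 with shCON and 13.03 with shDDX52, and with 0.1 in place of the added 1 it was 13.30 and 15.37.

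Outside the 10 members, the 55 protein-coding keratin genes held little in 22RV1. There 6 keratin genes reached 1 TPM in each library, and the members held 99.98% and 99.96% of the keratin sum. In PC3, 18 keratin genes reached 1 TPM, and the members held 96.5% and 96.9%. KRT75, a type II keratin of the hair follicle, was 283 and 287 TPM in PC3, and KRT6B, a type II keratin of stressed and hyperproliferative epithelium, was 158 and 133 TPM. KRT6A was 10.9 and 5.55 TPM, KRT23 9.19 and 7.53 TPM, and KRT16, the usual type I partner of KRT6 proteins, 5.87 and 5.94 TPM. KRT34, a type I hair keratin, was 3.07 TPM in PC3 shCON and 16.1 TPM in PC3 shDDX52, a log2 ratio of 2.07, and was the 1 keratin gene past 2-fold among the 18 tested in PC3, against 2.86% of all genes higher by as much. KRT75, KRT34, KRT6A, KRT23 and KRT16 were listed at 0 in both 22RV1 libraries, and KRT6B was at most 0.03 TPM there.

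Keratin filaments are anchored at the cell membrane by desmosomes and hemidesmosomes. Of 15 genes of desmosomes and plakins, 9 were tested in 22RV1 and 11 in PC3, and 0 were past 2-fold with shDDX52 in either line. Their median log2 ratios were 0.19 and 0.24. Of all genes tested, 2.86% were at least 2-fold lower and 2.24% higher in 22RV1, and 3.44% and 2.86% in PC3. DSP, the desmoplakin that ties keratin to the desmosome, was 23.5 and 23.1 TPM in 22RV1 and 19.3 and 34.9 TPM in PC3. Of 9 hemidesmosome and laminin-332 genes, 5 and 8 were tested, with medians of −0.033 and 0.092. Of these, 0 were past 2-fold with shDDX52, against the same shares of all genes. In PC3 against 22RV1, all 8 tested were at least 2-fold higher with either shRNA, against 19.9% and 21.0% of all genes, with median log2 ratios of 4.20 and 4.43. These medians were 5.46 and 5.67 with 0.1 in place of the added 1. ITGB4, the β4 integrin of hemidesmosomes, was 0.78 and 1.23 TPM in 22RV1 and 379 and 325 TPM in PC3.

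Among other intermediate filament genes, VIM, which encodes vimentin of mesenchymal cells, was 8.08 and 5.57 TPM in 22RV1 and 12.6 and 66.7 TPM in PC3. Its log2 ratio with shDDX52 was 2.31 in PC3. PRPH, the neuronal peripherin, was 6.24 and 17.7 TPM in 22RV1 and 0.94 and 2.93 TPM in PC3. Its log2 ratios were 1.37 and 1.02. These were the genes past 2-fold among the 13, of which 9 were tested in 22RV1 and 10 in PC3. Of all genes, 2.24% in 22RV1 and 2.86% in PC3 were at least 2-fold higher. The medians of the list were 0.090 and 0.14. The rule for named genes does not cover the PRPH value in PC3, nor DSP, HOXB13, FOLH1, GATA3, GRHL2 and HSPB1, which were named after their values were seen. It also does not cover SYP, NGFR, PTPRC, KRT83, KRT7-AS and KRT10-AS1, nor the CD68 values in PC3.

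Of 14 epithelial transcription factors, 12 were tested in 22RV1 with a median of 0.15, and GATA3 was at least 2-fold higher, from 1.20 to 3.57 TPM, against 2.24% of all genes. In PC3, 13 were tested with a median of −0.11, against −0.036 for all genes, and 2 were at least 2-fold lower, against 3.44% of all genes. These were ELF3, from 74.0 to 35.4 TPM, and KLF5, from 17.9 to 8.19 TPM, both with a log2 ratio of −1.04. Both encode epithelial factors. GRHL2, which maintains epithelial identity, was between 12.9 and 15.4 TPM in all 4 libraries. Of 9 genes for keratin-binding and filament-organising proteins, 0 were past 2-fold with shDDX52 in either line, with medians of 0.029 and −0.029. Of all genes, 2.86% were at least 2-fold lower and 2.24% higher in 22RV1, and 3.44% and 2.86% in PC3. HSPB1, a small heat shock protein that binds keratin filaments, was 2829 and 2974 TPM in 22RV1 and 1719 and 1773 TPM in PC3. Other listed genes past 2-fold with at least 5 TPM were CD44 (log2 ratio −1.17), LUM (−1.15) and CD68 (−1.53) in 22RV1, and S100A2 (−2.34) and PECAM1 (−1.70) in PC3. Each was lower, against 2.86% of all genes in 22RV1 and 3.44% in PC3.

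**Figure D5:**
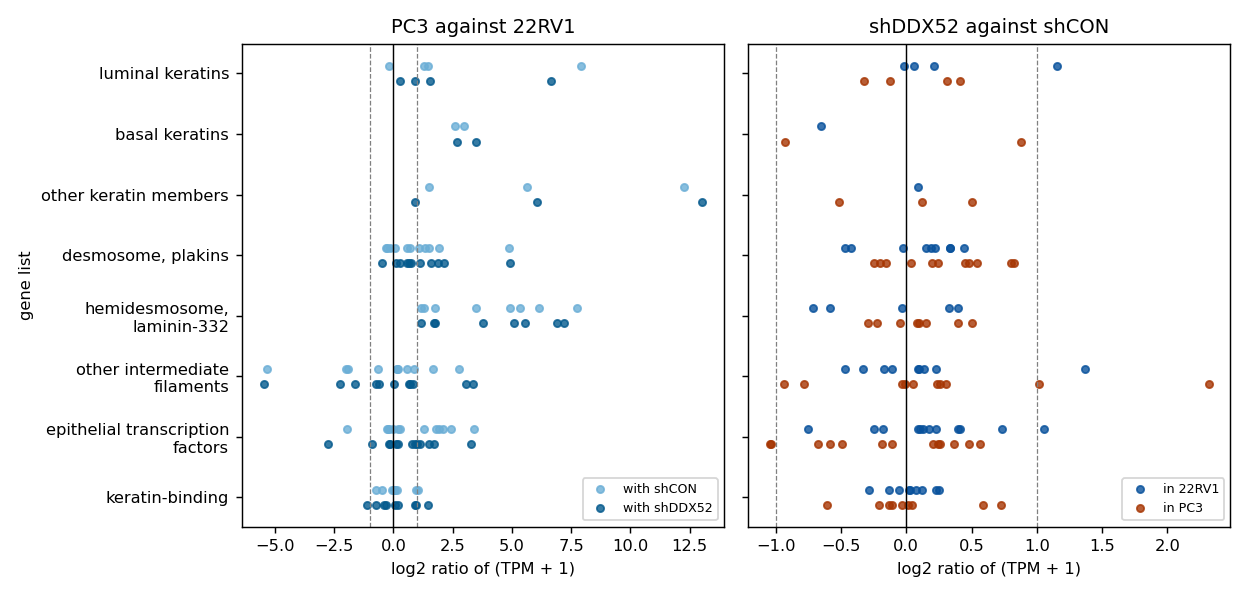
Log2 ratio of (TPM + 1) for the genes of each list, 1 point per gene, in PC3 against 22RV1 with either shRNA (left) and with shDDX52 against shCON in either cell line (right), with dashed lines at 2-fold. Hemidesmosome and laminin-332 genes all lie above 1 on the left, and on the right the point furthest from 0 among the lists plotted is VIM in PC3 (2.31).

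The genes with the pattern nearest to a keratin were sought by the Euclidean distance between log2(TPM + 1) profiles, each centred on its own mean over the 4 libraries, among 6907 protein-coding genes with a mean of at least 10 TPM. For KRT7, the luminal member with the highest mean TPM, which rests on its PC3 levels, they were C15orf48, ITGB4 and IGFBP6, at distances of 0.59, 0.62 and 0.82 on the log2 scale. For KRT15, the basal member with the highest mean TPM, they were STK17A, NMB and H2BC5, at 0.21, 0.24 and 0.25. STK17A was 3.06 and 2.14 TPM in 22RV1 and 35.2 and 18.5 TPM in PC3. With 4 libraries, a short distance says only that the values ran alike in these samples.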

How the data were processed

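Total RNA was extracted with Trizol and libraries were made with an Illumina TruSeq kit, per the labels. The authors deposited TPM for each Ensembl gene, with 1 column per library. The submitters' processing notes name CASAVA, HISAT2 and the build hg19, and the quantification program, annotation release and treatment of shared reads are not given in the sources used here. GENCODE 29, which is on GRCh38, gave chromosomes, gene types, overlaps and transcript sequences, and no coordinates of it are printed. Log2 ratios used an added 1 TPM over genes that reached 1 TPM in at least 1 of the libraries compared, and "past 2-fold" refers to this scale. Alternatives covered the added TPM (0.1), the minimum (5 TPM or none), the scaling, the centring, the addition of pseudogene TPM and a 1.5-fold threshold. The members and gene lists were chosen with earlier results of these data known. Genes were named by a rule: the members, other keratins of at least 5 TPM, up to 3 genes per list and cell line past 2-fold with at least 5 TPM, checks of the cell lines, and the 3 nearest patterns. A gene covered by the rule is not reported here. Ratios and calls were tested on simulated data. Scripts ran in Python 3.11.15 with pandas 2.3.3, numpy 2.4.6 and matplotlib 3.10.9.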

Additional observations from a re-analysis of the deposited data

How the results depend on the processing

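No paired analysis was possible because there was 1 library per condition, and no replicate could be left out. The 33 log2 ratios of members were recomputed under 197 alternatives, of which 195 kept their side of 2-fold and moved by at most 0.2 where they were under it. KRT15 in 22RV1 moved to −0.88 with 0.1 TPM added, and KRT17 in PC3 passed 2-fold with nuclear protein-coding scaling (1.01), which made 1 member higher there. The sign of KRT8 in 22RV1, from −0.016 to 0.060, and of KRT7 in PC3, from −0.13 to 0.0037, turned under other scalings. At 1.5-fold, 1 member was lower in 22RV1, 1 was lower in PC3 and 1 was higher in PC3. In PC3 against 22RV1 with shDDX52, 8 members were higher at 1.5-fold. The share of all genes past 1.5-fold was not computed for this comparison, so that count has no background beside it. The hemidesmosome medians in PC3 against 22RV1 stayed above 1 but moved to 5.46 (shCON) and 5.67 (shDDX52) with 0.1 TPM added, to 3.48 and 3.78 without a minimum, and with shDDX52 to 3.96 with nuclear protein-coding scaling. Other list medians moved by over 0.2 with the minimum. With at least 5 TPM, the hemidesmosome median with shDDX52 in 22RV1 was 0.18, and in PC3 against 22RV1 those of other intermediate filaments were −0.25 with shCON and −0.30 with shDDX52, and those of epithelial transcription factors 0.796 and 0.48. Without a minimum, the desmosome medians were 0.035 with shDDX52 in PC3 and 0.068 in PC3 against 22RV1 with shCON, and that of epithelial transcription factors was 0.54 with shDDX52. The KRT8 to KRT18 and type II to type I ratios stayed within 1.5 times under each alternative run.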
